A study of Oryza sativa with 3 samples.

Results

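The regions described here are the peaks of rice DNA on which the coverage with the transcription factor OsWRKY11 stood highest, and the tracts into which many of them fall. They were chosen by their pileup, which counts the OsWRKY11-Halo fragments that overlap at the summit of a peak, with a bound of at least 40. That bound was passed by 184 of 15980 peaks in the list of OsWRKY11-Halo replicate 1 (1.15%) and by 223 of 21447 in the list of replicate 2 (1.04%). These peaks are called the members below. Members of one list whose ends and starts lay at most 100 kb apart on a chromosome were joined into a tract, and a member with no such neighbour was called a lone peak. Because pileup chose the members, pileup, fold enrichment, background and q-value are all described without a test.

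DNA affinity purification sequencing (DAP-seq) incubates a tagged protein made outside the cell with naked, sheared genomic DNA and sequences what stays bound. The 3 libraries were 2 reactions with OsWRKY11 carrying a Halo tag (replicates 1 and 2) and 1 reaction with GFP-Halo, green fluorescent protein on the same tag, as the control. The control library is titled DZZ and the protocol names the GFP-Halo reaction DDZ. They are taken here to be the same, and every background below rests on that. The DNA of all 3 came from shoots of seedlings of the rice cultivar Nipponbare. The labels also describe formaldehyde fixation of shoots from plants with a pUbi:OsWRKY11-Myc transgene, and do not settle whether that step touched these libraries. They do not say that the replicates came from separate preparations, so the difference between them may be technical. Both lists were called against the same GFP-Halo library, so their backgrounds are not independent.

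OsWRKY11 belongs to the WRKY family, plant transcription factors known for binding the W-box element. Plant nuclei carry copies of plastid and mitochondrial DNA that moved into the chromosomes, and the sequence of rice chromosome 10 is known to contain long plastid insertions. DNA from green shoots also holds the organelle genomes themselves, in many copies per cell. Sequencing reads from an organelle can be placed on a nuclear copy that resembles it, in a transcription factor library and in a control library alike. Whether the tracts below are such copies was not tested. The lists name the 12 chromosomes only and give no sequence. They rest on a genome build not given in the sources used here, and no genome was used. Tracts are therefore given by position in the authors' lists and not by gene or sequence.

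Most members stood in tracts. In replicate 1, 142 of 184 members (77.2%) fell into 20 tracts and 42 were lone peaks, and in replicate 2, 177 of 223 (79.4%) fell into 27 tracts and 46 were lone. Members were present on all 12 chromosomes, and each list had tracts on 11 of them. Laid over each other, the tracts and lone peaks of the lists made up 86 separate places. A tract was present in both lists at 18 places, and in at least 1 list at 29. A lone peak stood in both lists at 23 places, while a lone peak in one list faced a tract in the other at 8. The remaining places, 13 in replicate 1 and 24 in replicate 2, had members in that list only. Places were joined only where they overlapped, so some of these lay close to a member of the other list. On chromosome 3, lone peaks of the lists with summits 2183 bp apart were counted as separate places. Of the lone peaks in 1 list only, 2 of 12 in replicate 1 and 2 of 22 in replicate 2 had a summit of lower pileup within 50 bp in the other list.

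The bound of 40 did not separate 2 clearly distinct classes. Replicate 1 had 16 peaks with a pileup from 30 to 39 and 12 from 40 to 49, and replicate 2 had 19 and 15. At the bound itself, 3 and 2 peaks had a pileup of 40, and 4 and 5 peaks had 39. The median pileup was 112 among members and 11 among the remaining peaks in replicate 1, and 110 and 11 in replicate 2. The lists are thus sparse around the bound, and the members extend far above it, to 498 in replicate 1 and 583 in replicate 2.

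The members lay on a raised GFP-Halo background. The background under a peak was recovered from the deposited pileup and fold enrichment. It is the GFP-Halo level behind the fold, on the scale of the OsWRKY11-Halo library, and not a count of fragments at the summit. The median background was 46.8 among members and 2.91 among the remaining peaks in replicate 1, and 45.3 and 3.06 in replicate 2. As rounded, the medians of the remaining peaks were also the lowest backgrounds of the lists. The contrast thus sets the members against that lowest value and not against varied local counts. No member lay on a background below 8.97 in replicate 1 or 10.99 in replicate 2. High coverage in these places was therefore shared by the OsWRKY11-Halo and the GFP-Halo libraries. The lists contain no fold below 2.00, and a peak on a background above 19 needs a pileup of at least 40 to reach that fold. That was so for 167 of 184 members (90.8%) in replicate 1 and for 201 of 223 (90.1%) in replicate 2, and for 0 of the remaining peaks.

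Fold enrichment of the members was mostly close to the lowest value of the lists. It was below 2.5 in 109 members of replicate 1 (59.2%, against 17.9% of all its peaks) and in 132 members of replicate 2 (59.2%, against 31.6%). A fold of at least 3 was reached by 30 members (16.3%) in replicate 1, where 40.7% of all peaks reached it, and by 35 members (15.7%) in replicate 2, where 26.1% did. A fold of at least 4 was reached by 8 members (4.35%, against 4.06% of all peaks) and 6 members (2.69%, against 1.71%). Every member had a q-value of at most 0.05, with a highest value of 0.0167 in replicate 1 and 0.0139 in replicate 2. A deep background lets a modest fold pass a Poisson test by a wide margin, so a low q-value among the members goes with depth and is not a measure of enrichment. The plot of pileup against background shows the members along the line of 2-fold enrichment, with few of the members above the line of 4-fold.

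**Figure D1:**
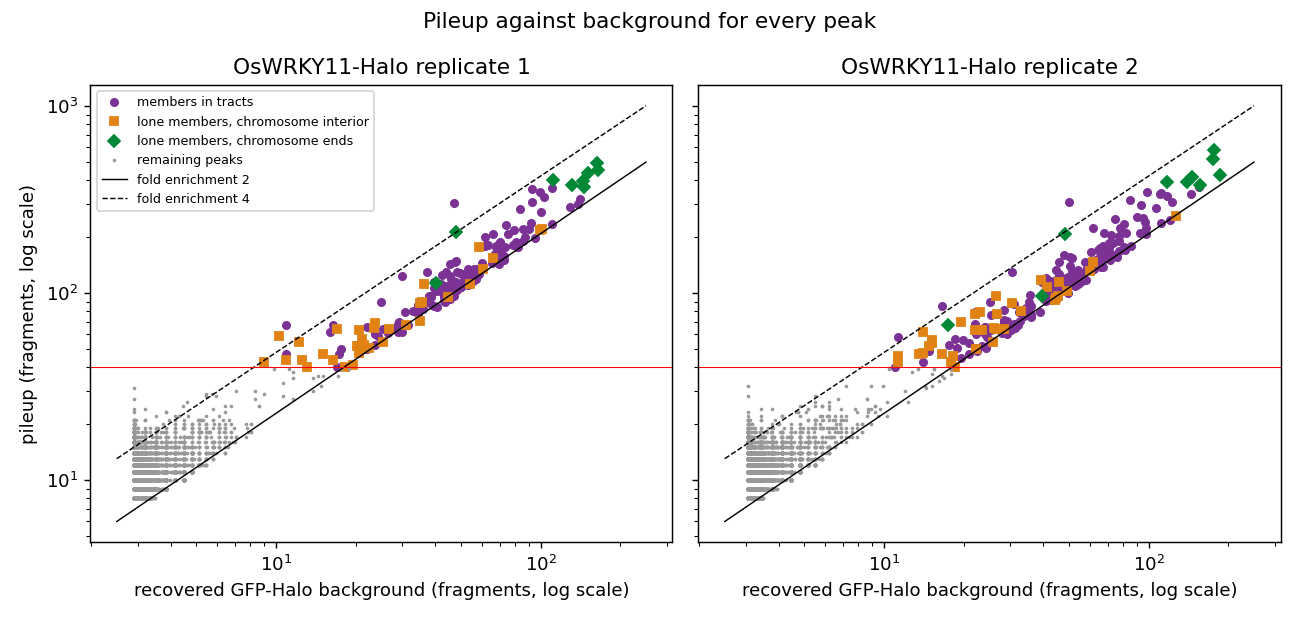
Pileup (vertical axis, fragments) against recovered GFP-Halo background (horizontal axis, fragments) for every peak of each list, both on log scales, with members in tracts, lone members at chromosome ends and elsewhere, and the remaining peaks; black lines mark fold enrichments of 2 and 4, and the red line a pileup of 40. The members run along the 2-fold line at a median background of 46.8 in replicate 1 and 45.3 in replicate 2.

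A total of 10 places held a tract of 5 or more members in at least 1 list, and these are described in turn from the longest to the shortest. With a joining distance of 20 kb in place of 100 kb, the longest tracts came apart: the tract on chromosome 1 and the first on chromosome 10 each fell into 2 pieces in both lists, and the first on chromosome 4 into 2 pieces in replicate 2. That was 2 of the 10 in replicate 1 and 3 of 10 in replicate 2, while none came apart at 50 kb. They held 117 of the 184 members of replicate 1 and 136 of the 223 of replicate 2. Where the lists overlap so closely, the match of single peaks was measured by their summits: a peak was called matched when the other list had a summit within 50 bp. Of all peaks, 8.57% were matched in replicate 1 and 6.39% in replicate 2. Of the tract members, 99 of 142 (69.7%, 95% Wilson interval 61.7% to 76.7%) were matched in replicate 1 and 105 of 177 (59.3%, 52.0% to 66.3%) in replicate 2. Members were chosen by pileup in both lists and share a control, so these shares describe the lists. Intervals here and below cover counting error only, since the labels name no molecular identifiers and some fragments may be copies of one molecule. The Wilson intervals also treat members as independent and do not cover differences between tracts.

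The longest tract lay on chromosome 10 and had the most members. It ran from 10808721 to 10920850 in replicate 1, a span of 112.1 kb with 27 members, and from 10806817 to 10920846 in replicate 2, 114.0 kb with 35 members. No peak of lower pileup was called inside it in either list. Neighbouring summits stood a median of 2252.5 bp apart in replicate 1 (from 310 to 23199 bp) and 1895 bp in replicate 2 (from 384 to 20876 bp). The spacing was uneven: counted from its joint start, the first 20 kb held 9 members in replicate 1 and 12 in replicate 2, while the stretch from 80 to 100 kb held 1 in each list.

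Heights along the chromosome 10 tract followed each other at the 21 matched summits, with a Spearman's rho of 0.914. Pileup ran from 86 to 360 (median 136) in replicate 1 and from 74 to 345 (median 131) in replicate 2. The highest summit stood at 10872724 in replicate 1 and 10872725 in replicate 2, with pileups of 360 (exact 95% Poisson interval 323.8 to 399) and 345. Those pileups stood on backgrounds of 92.9 and 98.9, which gave the highest folds of the tract, 3.84 and 3.46. A neighbour at 10873507 had pileups of 272 and 283, and a summit at the far end, 10920767 in replicate 1, had 306 and 296. These 3 summits were the highest of the tract in both lists. The stretch from 40 to 60 kb had a median pileup of 106 in replicate 1, against 136 for the tract. In replicate 2 its median was 113, which was no distinct low. The first 20 kb there had 114.5, and the single member between 80 and 100 kb had 102. Of the members, 21 of 27 in replicate 1 and 21 of 35 in replicate 2 were matched. None of the members between 20 and 40 kb was matched in either list, although replicate 1 had 2 there and replicate 2 had 3. The closest pair in that stretch had summits 60 bp apart, with pileups of 136 and 151.

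The tract on chromosome 1 spanned 79.9 kb in replicate 1 (33500730 to 33580646, 16 members) and 82.5 kb in replicate 2 (33498153 to 33580693, 12 members). It fell into outer parts with a thinly filled middle. The middle contained a single member in replicate 1, with a summit at 33527366 and a pileup of 93, and an unbroken gap of 43.5 kb between summits in replicate 2. Median spacing was 3.15 kb and 3.93 kb. Pileup ran from 77 to 220 in replicate 1, and in replicate 2 from 77 to 255, with the highest summits 12 bp apart at 33553396 and 33553408. At the matched summits, replicate 2 had a median of 1.15 times the pileup of replicate 1 (0.944 to 1.29). Fold stayed low throughout, with a highest value of 2.54 in replicate 1, at its highest summit, and 2.83 in replicate 2, at 33579118. Matched members numbered 10 of 16 in replicate 1 and 10 of 12 in replicate 2, and the unmatched members of replicate 1 had a median fold of 2.04, against 2.28 at matched ones.

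The first of 2 tracts on chromosome 4 held the member with the highest fold of all. The tract ran from 9114001 to 9184681 in replicate 1 (70.7 kb, 12 members) and from 9103140 to 9184671 in replicate 2 (81.5 kb, 14 members). Median spacing, 5.28 kb in replicate 1 and 4.64 kb in replicate 2, was wide for a tract. At 9156424, the summit in both lists, pileup was 303 in replicate 1 and 305 in replicate 2, on backgrounds of 47.1 and 49.8. Its fold of 6.32 and 6.03 stood apart from the other members of the tract, of which the next highest was 3.47 in replicate 1 and 3.06 in replicate 2 at 9184564 and 9184560. The background at 9156424 was not unusual for the tract, whose median background was 51.3 in replicate 1 and 54.2 in replicate 2. A summit nearby reached a similar height with another ratio: at 9173624 in replicate 1 and 9173590 in replicate 2, pileups of 320 and 367 stood on backgrounds of 141.0 and 154.5, a fold of 2.26 and 2.37. Coverage was higher toward the end of the tract. The first 40 kb of the joint span held pileups from 91 to 178 in replicate 1, and the part beyond 60 kb from 116 to 346. In replicate 2 these were 94 to 170 and 136 to 367. Of the members, 8 of 12 and 8 of 14 were matched, 7 of them within 10 bp.

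On chromosome 2, the tract from 14239831 to 14288549 in replicate 1 (48.7 kb) and from 14240660 to 14289046 in replicate 2 (48.4 kb) had 10 members in each list. It differed from the other long tracts in how few of its summits coincided: 3 of 10 were matched in each list, and the median distance to the nearest summit of the other list was 431 bp. The matched summits lay 0, 2 and 8 bp apart. The remaining members stood between 230 and 2156 bp from the other list's summits in replicate 1. Coverage was nonetheless alike, with a pileup from 66 to 184 (median 112.5) in replicate 1 and from 68 to 210 (median 115) in replicate 2. The highest summits stood at 14279462 and 14279179, in peaks with nearly the same bounds (14278696 to 14279529 and 14278682 to 14279529). The highest fold was 2.89 at 14239890 in replicate 1 and 2.53 at 14252941 in replicate 2.

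The tract on chromosome 8 spanned 41.2 kb in replicate 1 (9243003 to 9284161, 7 members) and 38.1 kb in replicate 2 (9243009 to 9281129, 10 members). Its first member stood alone, at 9243194 in replicate 1 and 9243189 in replicate 2, and a gap of 19.6 kb followed in both lists. Its pileups were the most even of the 10 tracts, from 103 to 188 in replicate 1, and in replicate 2 from 92 to 186. The highest summits, at 9262803 and 9262791, had pileups of 188 and 186, and folds of 2.66 and 2.52. The highest folds, 2.91 and 2.94, stood at 9267456 and 9267446. Matched members numbered 6 of 7 in replicate 1 and 6 of 10 in replicate 2.

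The tract on chromosome 12 was short and dense. It ran from 5619081 to 5652586 in replicate 1 (33.5 kb, 16 members) and from 5618854 to 5652246 in replicate 2 (33.4 kb, 23 members), with a median spacing of 1.35 kb and 1.00 kb. Of the distances between neighbouring summits, 6 of 15 in replicate 1 and 11 of 22 in replicate 2 were below 1000 bp. A group of 3 summits stood out in height. At 5621213, the summit in both lists, pileups were 230 and 223. At 5627858 in replicate 1 and 5627871 in replicate 2 they were 207 and 208, and at 5630974 and 5630966 they were 200 and 222. The last of these had the highest folds of the tract, 3.20 and 3.57. All other members had pileups of at most 111 in replicate 1 and 110 in replicate 2, and the lowest, 53 and 52, lay beyond the first 15 kb. Among the 10 tracts, it had the highest share of matched members in replicate 1, 14 of 16, while 14 of 23 were matched in replicate 2.

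The second tract on chromosome 10 lay between 20466416 and 20484666 in replicate 1 (18.3 kb, 6 members) and between 20451745 and 20484667 in replicate 2 (32.9 kb, 9 members). Replicate 2 began earlier, with a member at 20451799 that had a pileup of 81 and stood 14757 bp from the nearest summit of replicate 1. This tract had the highest median pileup of the 10, 195 in replicate 1 and 160 in replicate 2, and the highest median background, 80.9 and 72.1. Its highest summits, at 20467613 and 20467625, had pileups of 324 and 341 with folds of 3.12 and 3.05. Another, at 20481913 and 20481936, reached 298 and 337 on a background of 138.7 and 144.5 with folds of 2.14 and 2.32. Matched members numbered 5 of 6 and 5 of 9.

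On chromosome 6 the tract ran from 23563418 to 23587252 in replicate 1 (23.8 kb, 13 members) and from 23563451 to 23585226 in replicate 2 (21.8 kb, 11 members). Its coverage was lowest at the beginning and highest at the end, with a dip between. Its first members, at 23563489 and 23563868 in replicate 1, both had a pileup of 47, on backgrounds of 17.3 and 10.9, and their partners in replicate 2 had 42 and 40. Its last, at 23587145 in replicate 1, had 233 on a background of 110.5. The last member of replicate 2, at 23585118, had 206 on a background of 97.5. Fold ran the other way: the highest folds of the tract, 4.04 and 3.42, stood at 23563868 and 23563874, where pileup was 47 and 40, and the highest pileups had folds of 2.10 in both lists. It was also the only one of the 10 tracts with a peak of lower pileup inside, 1 peak in replicate 1. Matched members numbered 9 of 13 and 10 of 11.

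The second tract on chromosome 4 spanned 21.2 kb in replicate 1 (23638293 to 23659504, 6 members) and 19.8 kb in replicate 2 (23638295 to 23658128, 7 members). Coverage was highest at its very start, the reverse of the chromosome 6 tract. The first summit, at 23638375 and 23638387, had pileups of 282 and 313 and folds of 3.36 and 3.65. The member at 23647200, with the same summit in both lists, had 90 and 89 fragments and folds of 3.501 and 3.453. Toward the far end, at 23658038 and 23658033, pileups were 50 and 60. Of the members, 5 of 6 and 5 of 7 were matched.

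The shortest of the 10 lay on chromosome 7, with 4 members over 3.11 kb in replicate 1 (27976193 to 27979302) and 5 over 3.65 kb in replicate 2 (27975662 to 27979311). Its median spacing was 487 bp and 486.5 bp. All but 1 of its members had pileups from 60 to 64 in replicate 1, and in replicate 2 from 51 to 69. The exception, at 27979144 and 27979154, had 149 and 154 fragments with folds of 3.08 and 2.97. Matched members numbered 3 of 4 and 3 of 5.

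**Figure D2:**
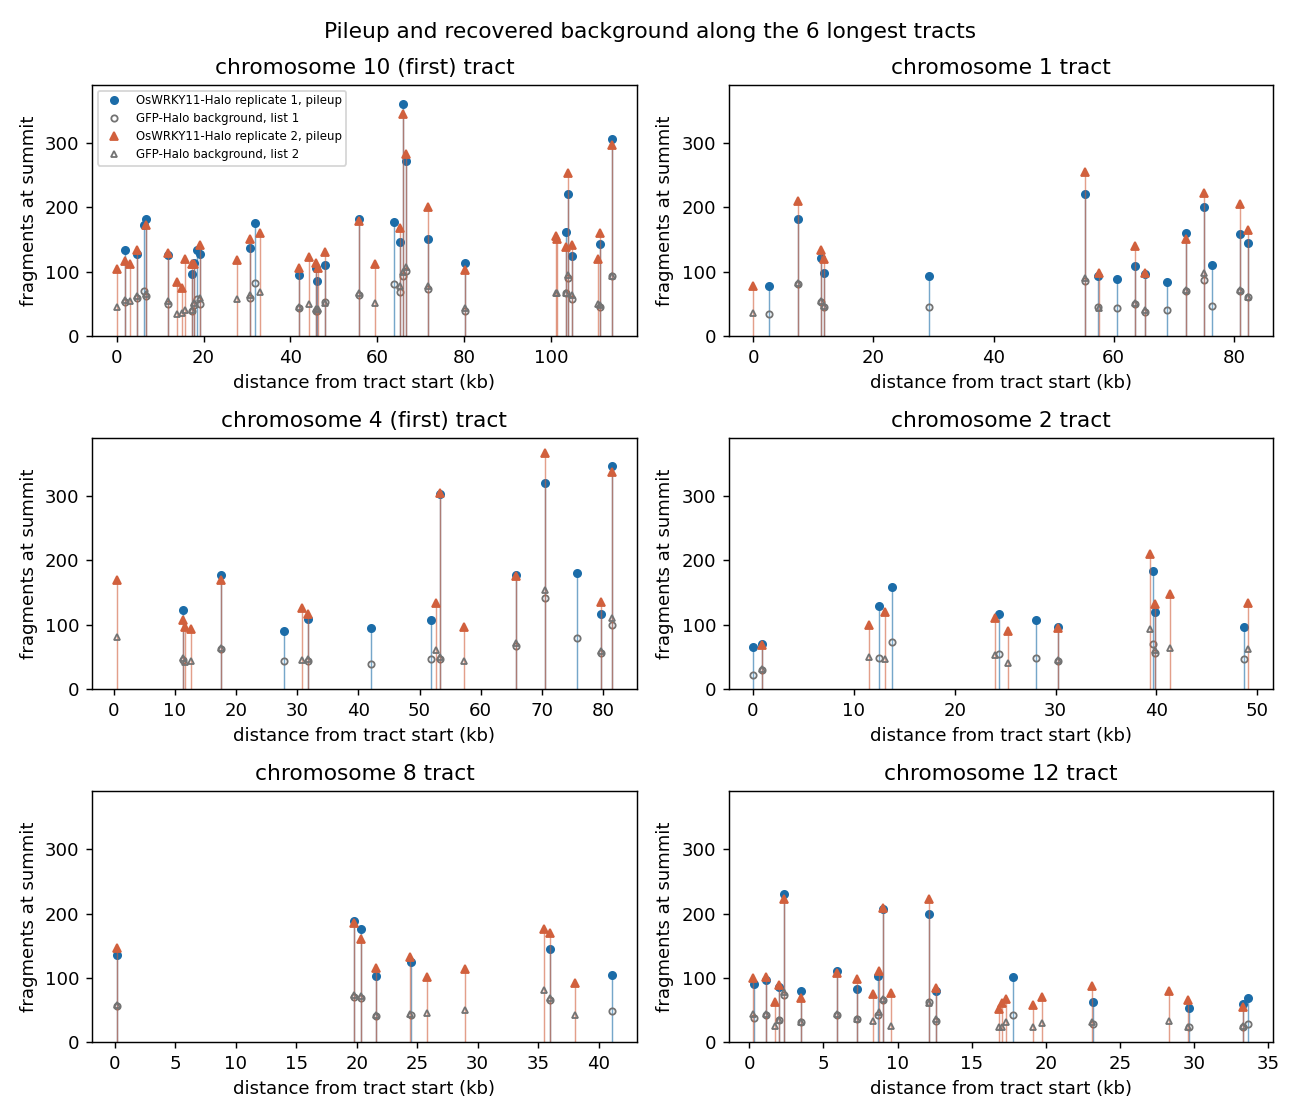
Filled symbols give the pileup and open symbols the recovered GFP-Halo background (vertical axis, fragments) of each member along the 6 longest tracts. Members are placed by distance from the tract's joint start (horizontal axis, kb), for replicate 1 (circles) and replicate 2 (triangles). Thin lines drop from each pileup to 0. On chromosome 12, 14 of 16 summits of replicate 1 and 14 of 23 of replicate 2 had a match within 50 bp, and on chromosome 2, 3 of 10 in each list.

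By the joining rule, no peak with a pileup of 40 or more can lie within 100 kb of a tract, so the drop in pileup at its edges is set by the choice of members. Over their full lengths they held 1 peak with a pileup below 40 in replicate 1 and 0 in replicate 2. The 100 kb on either side held 72 peaks in replicate 1 and 106 in replicate 2 over 20 flanks each. The rule does not set how far below 40 these fall, but the remaining peaks of each list had a median pileup of 11. A pileup from 30 to 39 was found in 16 of 15796 remaining peaks of replicate 1 and 19 of 21224 of replicate 2. Low flanks are thus not particular to the tracts. The flank right of the first chromosome 4 tract held 0 peaks in replicate 1 and was counted as low. The highest pileup was at most 18 in 19 of 20 flanks in each list. The exception was the right flank of the chromosome 12 tract, where a peak with a pileup of 36 in replicate 1 and 39 in replicate 2 stood 2.40 kb and 2.73 kb from the edge, just under the bound. Outside the other edges, the nearest called peak could be far away: over all 20 edges its distance had a median of 33.8 kb (2.40 to 147.0 kb) in replicate 1 and 27.7 kb (2.73 to 98.7 kb) in replicate 2. A pileup below 40 cannot reach a fold of 2 on a background above 19, so peaks of lower pileup could not be called where the background was that deep. The background between the called peaks was not measured, and the chromosome 6 tract had members on backgrounds below 19.

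Over all tracts, neighbouring summits stood a median of 2012.5 bp apart in replicate 1 (238 to 26030 bp, 122 distances) and 1764 bp in replicate 2 (239 to 87052 bp, 150 distances). A distance below 1000 bp was found in 32 and 46 cases, and one from 450 to 650 bp, a range chosen after the values were seen, in 9 and 17. A like order of distances in different tracts, or in one tract read in either direction, was also looked for. With 5 bp allowed per summit, no more than 3 summits lined up in any of 420 comparisons in replicate 1 and 756 in replicate 2. That length was reached in 2 and 5 of them. The comparisons took in all tracts, and a tract of 2 or 3 members cannot exceed 3 summits whatever its spacing. Tracts of 2 members were 6 of 20 in replicate 1 and 11 of 27 in replicate 2. For many comparisons the lack of a longer run was thus fixed in advance. No chance level was computed for so short a run, and no tract was shown to repeat another by its spacing.

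**Figure D3:**
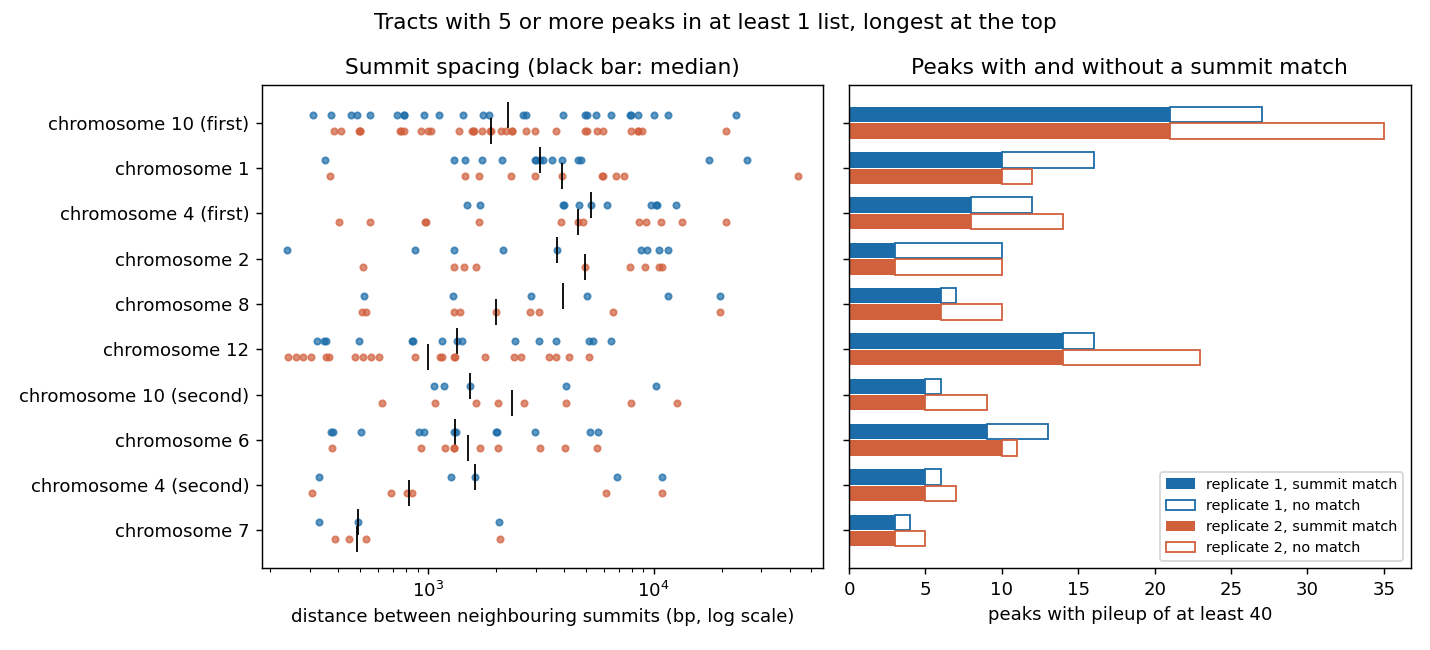
The left panel gives the distance between neighbouring summits (bp, log scale; black bars are medians) and the right panel the number of members with (filled) and without (open) a summit within 50 bp in the other list, for the 10 tracts from longest to shortest and for each replicate. The chromosome 7 tract has the closest spacing, with medians of 487 and 486.5 bp, and the chromosome 2 tract the lowest share of matches, 3 of 10 in each list.

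At matched summits the lists gave nearly the same heights. Over the 99 matched tract members of replicate 1, the pileup in replicate 2 was a median of 1.07 times that in replicate 1 (SD 0.112, range 0.851 to 1.40). The ratio of the lowest backgrounds of the lists, which reflects how the GFP-Halo library was scaled to each, was 1.05. The exact 95% Poisson intervals of the pileups overlapped in all 99 pairs. The background under the same pairs had a median ratio of 1.05 (0.918 to 1.36). Across the pairs, Spearman's rho was 0.973 for pileup, 0.991 for background and 0.618 for fold. These are descriptions across 99 peaks that share a control library and were chosen for high pileup. Pileup follows from fold and background, and a pair needs a fold of at least 2 in both lists over the same GFP-Halo library. With folds mostly between 2 and 3, close heights are thus in part set by the calling. They do not measure how well binding repeats. Rank by fold was less alike between the lists than rank by height. Within single tracts with at least 6 matched members of replicate 1, rho of pileup ran from 0.898 on chromosome 4 to 0.992 on chromosome 6 (8 and 9 pairs). Over the matched members of replicate 2, the chromosome 6 tract had a rho of 0.957 (10 pairs). The highest was then 0.969, on chromosome 12.

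**Figure D4:**
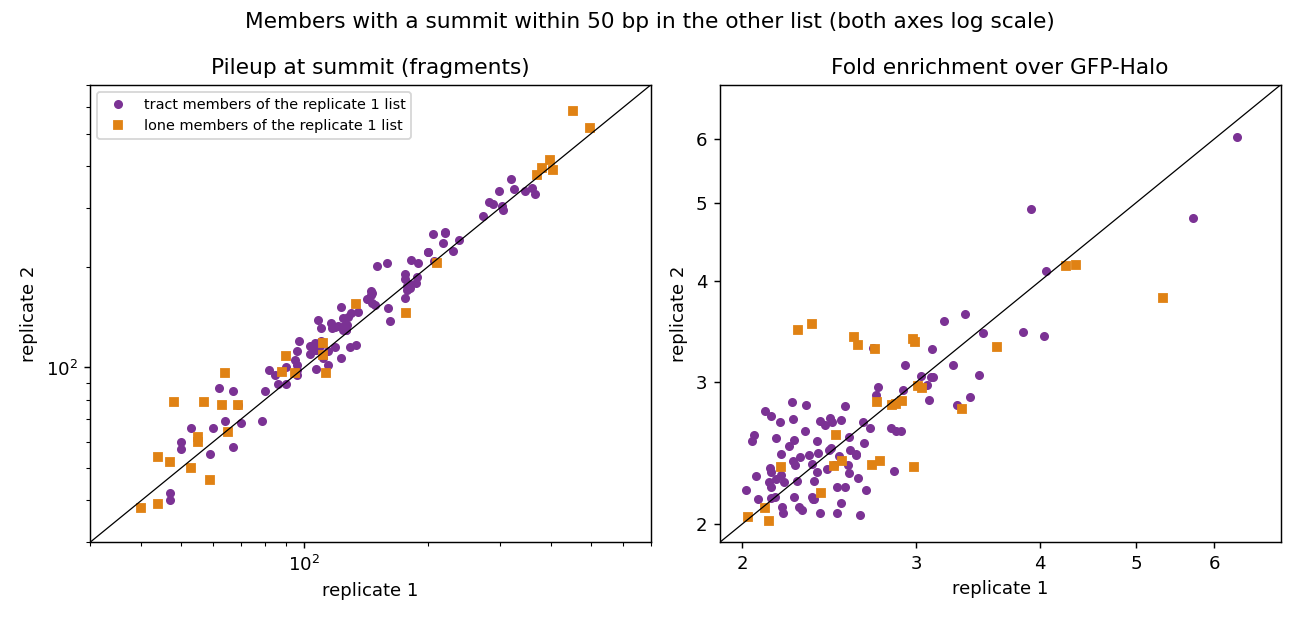
Pileup (left, fragments) and fold enrichment (right) in replicate 2 (vertical axis) against replicate 1 (horizontal axis), on log scales, for members of replicate 1 with a summit within 50 bp in replicate 2; the line marks equal values. Pileups of the 99 tract pairs follow the line with a median ratio of 1.07, while folds scatter widely between 2 and 3.

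Tract members without a matched summit had a lower median fold. It was 2.21 at the 43 unmatched members and 2.46 at the 99 matched ones in replicate 1, and 2.23 (72 members) and 2.501 (105 members) in replicate 2. The highest fold of an unmatched tract member was 3.70 in replicate 1 and 2.99 in replicate 2. A site just under a fold of 2 in one list is not called there, so a member close to that fold has less chance of a partner by construction. Of the unmatched tract members, 20 of 43 in replicate 1 and 40 of 72 in replicate 2 stood more than 1000 bp from any summit of the other list.

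The tracts of fewer than 5 members were mostly pairs or triplets within a few kb. There were 11 tracts of 2 to 4 members in replicate 1 and 17 in replicate 2. On chromosome 12, members between 20925235 and 20928313 (4 in replicate 1) and between 20925234 and 20928299 (3 in replicate 2) had pileups from 130 to 289 and from 146 to 308. On chromosome 5, the summits at 12888589 and 12888578 had pileups of 366 and 330, and it was the highest tract member of replicate 1. A pair on chromosome 1 repeated closely, with summits 546 bp apart in replicate 1 and 550 bp apart in replicate 2. Its pileups were 187 and 176 in replicate 1, and 179 and 190 in replicate 2.

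Some of these small tracts held members with a fold near or above 4. The second highest fold of all members was 5.72 in replicate 1, at 13299383 on chromosome 2, with 4.79 in replicate 2 at 13299382. Its pileups were 67 (51.9 to 85.1) and 58 (44.04 to 74.98) on backgrounds of 10.9 and 11.3. At 1202 bp from it in replicate 1, the summit at 13298181, and at 13298182 in replicate 2 had pileups of 129 and 115 on backgrounds of 37.2 and 39.3, and folds of 3.40 and 2.87. On chromosome 3, the summits at 25249303 and 25249299 had folds of 3.92 and 4.92 with pileups of 67 and 85. On chromosome 1, the summits at 39125139 and 39125138 had folds of 4.06 and 4.12 with pileups of 124 and 129. The backgrounds on chromosome 3 were 16.3 and 16.5, and those on chromosome 1 were 29.8 and 30.6.

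Other small tracts were joined over long distances. In replicate 2, members on chromosome 12 at 20473362 and 20514334 stood 41.0 kb apart, and those on chromosome 1 at 16772005 and 16812181 stood 40.2 kb apart. On chromosome 5, replicate 2 joined the summit at 12888578 to a member 87.1 kb away and to 1 more beyond it, with 6 lower peaks inside the tract, whereas the tract of replicate 1 there was 2.82 kb long with none. The extent of these tracts therefore depends on the joining distance.

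The lone peaks fell into a group at chromosome ends and a scattered remainder. In replicate 1, 9 of 42 lone members were the last peak of a chromosome or started within 2 kb of its beginning, and in replicate 2, 10 of 46. Their median pileup was 398 (113 to 498) in replicate 1 and 392 (67 to 583) in replicate 2, and that of the lone members elsewhere was 63 and 64.5. The share of all peaks that lay at chromosome ends by this definition was not computed. Of the 10 highest lone peaks in each list, 8 lay at a chromosome end. Background moved with height in the same way: its median was 144.8 at the end peaks and 22.4 at the other lone peaks in replicate 1, and 142.6 and 24.5 in replicate 2.

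The end peaks were largely shared, with 8 of 9 matched in replicate 1 and 8 of 10 in replicate 2. The last peak of chromosome 6, with summits at 31247654 and 31247648, had pileups of 498 (455.2 to 543.7) and 519 (475.3 to 565.6). The first peak of chromosome 2, at 163 and 165, had 452 (411.3 to 495.7) and 583 (536.6 to 632.3), and it was the only matched member of replicate 1 whose intervals did not overlap. Chromosome 5 began with a peak of 404 and 390 fragments at 251 and 253, with folds of 3.62 and 3.31. Chromosomes 8 and 10 each had a peak just past 1 kb, with pileups of 379 and 394 on chromosome 8 and of 370 and 376 on chromosome 10. The last peaks of chromosomes 2, 7 and 3 had pileups of 398 and 416, of 437 and 429, and of 211 and 206. The last peak of chromosome 4 was lower, with pileups of 113 and 96. The summits on chromosome 7 lay 56 bp apart and so were not counted as matched. An unmatched end peak of replicate 2, at 1061 on chromosome 3, had a pileup of 67, and the nearest summit of replicate 1 lay 17318 bp away. Among the end peaks, the last peak of chromosome 3 had the highest folds, 4.35 and 4.19, on the comparatively low backgrounds of 47.7 and 48.4.

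Over all lone peaks, 29 of 42 in replicate 1 (69.0%) and 25 of 46 in replicate 2 (54.3%) were matched. Away from the ends, 21 of 33 lone members of replicate 1 (63.6%) and 17 of 36 of replicate 2 (47.2%) were matched. Of the 10 highest lone peaks in each list, 2 were interior. In replicate 1, both were unmatched: peaks with pileups of 219 on chromosome 8 (22325692 to 22325815) and 218 on chromosome 11 (12325852 to 12325965) stood 8155 bp and 17718 bp from the nearest summit of replicate 2. Those nearest summits had pileups of 9 on chromosome 8 and 94 on chromosome 11, the latter itself a lone member of replicate 2. In replicate 2, a peak with a pileup of 259 on chromosome 1 (16913222 to 16913433) stood 46393 bp from the nearest of replicate 1. The other of replicate 2, at 14235676 on chromosome 7, had a pileup of 146 and was matched at 1 bp by a peak of 177 in replicate 1. The 3 unmatched ones had folds from 2.04 to 2.18 and backgrounds of at least 99.7. A site with so little enrichment over so deep a background falls below the lowest fold of the lists with a small loss of fragments, so its absence from one list says little about its coverage there.

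A few lone peaks combined a pileup above the bound with a high fold. On chromosome 4, the summits at 2086487 and 2086482 had folds of 5.33 and 3.81 with pileups of 59 (44.9 to 76.1) and 46 (33.7 to 61.4). On chromosome 1, the peak at 14139698 to 14139875 in replicate 1 had a fold of 4.25 and a pileup of 55, and its partner had 4.18 and 62. On chromosome 2, a peak of replicate 1 with its summit at 2944360 had a fold of 4.41 and a pileup of 43, and the nearest summit of replicate 2, 900 bp away, had a pileup of 10. The largest ratio of pileups among matched lone members of replicate 1 was 1.65, at 20440457 on chromosome 1, with a pileup of 48 in replicate 1 and 79 in replicate 2, whose intervals still overlapped. Another, on chromosome 10 at 16282225, had 64 and 96.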

How the data were processed

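The analysis started from the peak tables that the authors deposited, 1 for each OsWRKY11-Halo library, each called against the GFP-Halo library, as the peak names show. The submitters' processing notes list MACS2 2.2.7.1, BWA 0.7.12-r1039 and Trimmomatic 0.36, with options, read totals and genome build not given in the sources used here. Every row holds, per the file headers, a pileup (a coverage signal in whole fragments), a fold enrichment (a ratio of pileup to local background), and -log10 p-values and q-values. These scores are the authors' own and served to describe, rank and filter peaks within a list.

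The background was recovered by adding 1 to the pileup, dividing by the fold and subtracting 1. A Poisson p recomputed from it came within 0.01 of the deposited -log10 p for 100% of peaks. Tracts were joined by the gap between one peak's end and the next start. The step was checked on made-up lists that held no cases right at the joining or matching bounds, so such cases were not checked. Depth per library is unknown; pileups have exact 95% Poisson intervals and shares 95% Wilson intervals. Tracts with 5 or more members in at least 1 list, the highest pileup and fold in each, and the 10 highest lone peaks per list were named; the other peaks named were chosen after their values were seen. The members, the bound and the tests were chosen with earlier results of these data known. Computation used pandas 2.3.3, numpy 2.4.6, matplotlib 3.10.9 and scipy 1.17.1 under Python 3.11.15.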

Additional observations from a re-analysis of the deposited data

How the results depend on the processing

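Counts of members, tracts and lone peaks were recomputed with a pileup bound of 30 or 60 and a joining distance of 20, 50 or 200 kb. They stayed within 1.5 times the reported values in all settings but 1: with a bound of 60, replicate 1 had 27 lone peaks in place of 42. The number of tracts ran from 19 to 24 in replicate 1, and in replicate 2 from 21 to 30, and those in both lists from 16 to 20. The share of tract members with a matched summit was 39.4% in replicate 1 and 33.3% in replicate 2 within 10 bp, and 54.9% and 46.3% within 20 bp, as a closer match counts fewer summits. It stayed inside the intervals of the reported shares within 100 bp, by overlap of at least 50% of the shorter peak, with partners of pileup of at least 40 and at a q-value of at most 0.05. The median ratio between lists was 1.08 for -log10 q and 1.01 for fold, in place of 1.07 for pileup. Leaving out a replicate leaves 1 list and no match to give. No paired analysis was possible because the single GFP-Halo library was the control of both lists. The depth of the libraries is unknown, and its effect was not tested.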
